A study of Mus musculus with 19 samples.

Results

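Mbp, Mobp, Mog, Mag, Cnp, Mal and Cldn11 are genes that oligodendrocytes use to build myelin, and their mRNA was followed here in ribosome precipitates made from another cell type, the cholinergic neuron of the spinal cord. The 7 genes were taken by symbol from the 50559 genes of the count table. They were selected on these same libraries, for being lower than in the input and for the way they moved from library to library. Their ratios to the input and their correlations are therefore given as a description, without a test. The tests between time points use the same libraries and are not independent of that choice.

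The libraries came from 10-wk-old male wild-type C57BL/6J mice that carried ChAT-Cre and 1 RiboTag fx allele (ChAT-Cre;RiboTag fx/+). ChAT is choline acetyltransferase, the enzyme that makes acetylcholine, and Cre made under its control switches on a hemagglutinin-tagged ribosomal protein in cholinergic cells. Ribosomes were precipitated with an antibody to the tag from 1 spinal cord per sample at ZT0, ZT4, ZT8, ZT12, ZT16 and ZT20 (Zeitgeber time, hours after lights on, in 12 h of light and 12 h of darkness), with 3 animals per time point. This gave 18 immunoprecipitates, and a single library of pooled input was made from homogenate of the whole cord taken before precipitation. All groups carried the same alleles, no precipitate without the tag was analysed here, and all samples were handled on a single day according to the methods.

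Myelin is the sheet of membrane that oligodendrocytes of the central nervous system and Schwann cells of the peripheral nerves wrap around axons. Part of its mRNA travels away from the oligodendrocyte cell body: Mbp mRNA, the best-known case, is carried along the processes and translated beside the growing sheath, and Mobp mRNA is also found there. Neurons do not build myelin. In a ribosome precipitate from neurons these mRNAs are therefore usually read as RNA of cells that do not carry the tag.

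Members were ordered by what their proteins do. Mbp encodes myelin basic protein, which holds the inner faces of the myelin membrane together, and Mobp encodes a small basic protein of the same compartment. Mag and Mog encode surface proteins of the immunoglobulin superfamily, the first on the innermost wrap facing the axon and the second on the outermost face of the sheath. Cnp encodes a cyclic nucleotide phosphodiesterase of the cytoplasm-filled channels of myelin. Mal encodes a lipid-raft protein with a role in membrane sorting, and Cldn11 encodes the claudin of the tight junctions between myelin wraps.

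Total counts were between 6302150 and 22406844 in the immunoprecipitates and 15239792 in the input. The label of the tissue could be checked against 7 markers of cholinergic neurons (Chat, Slc5a7, Slc18a3, Ache, Isl1, Mnx1 and Prph). Of the 5 whose input count reached 100, 4 were enriched in every immunoprecipitate, and the median log2 ratio to the input was 2.01. Chat itself was at 12.7 CPM in the input and ran from 8.35 to 86.9 CPM in the immunoprecipitates. Markers of all other cell types examined had a negative median log2 ratio to the input. A single library stood apart: ZT8 replicate 2 had the lowest mean of the cholinergic list (6.71 on the log2 CPM scale, against 7.07 to 7.89 in the others). It also had the smallest share of counts from mitochondrially encoded mRNA, 0.161% against 0.219% to 0.471%. The tests and the correlations that turn on it are given below with and without it.

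All 7 myelin genes were lower in each of the 18 immunoprecipitates than in the input, but by very different amounts. Levels are given as CPM, counts relative to a library size that was scaled with TMM (trimmed mean of M-values) over all 19 libraries. Mal was depleted most and Mobp least, and the ranges of the other 5 lay between theirs or overlapped them.

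Mbp was at 10930 CPM in the input, with an exact 95% Poisson interval of 10880 to 10980 that covers counting error only. In the immunoprecipitates its lowest, median and highest values were 483, 661 and 908 CPM. The highest value, in ZT0 replicate 1, was still 8.31% of the input. Its mean of 670 ± 120 CPM (SD, n = 18) was 6.13% of the input, or 16.3-fold lower.

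Mobp was at 2028 CPM in the input. It ranged from 261 CPM in ZT4 replicate 1 to 399 CPM in ZT16 replicate 3, with a median of 309 CPM. Its mean of 314 ± 32.7 CPM (SD, n = 18) was 15.5% of the input. The lowest library, at 12.9%, was above the highest library of each of the other 6 members.

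Mal was at 532 CPM in the input. Its lowest, median and highest values in the immunoprecipitates were 4.93, 12.8 and 20.1 CPM. The lowest was ZT8 replicate 2 and the highest ZT16 replicate 2, 4.08-fold apart. The mean of 13.1 ± 4.93 CPM (SD, n = 18) was 2.46% of the input, which placed Mal at rank 16 from the most depleted among 11361 genes (those whose input count reached 100).

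Among the other 4 members, Cldn11 fell from 503 CPM in the input to between 17.9 and 30.8 CPM, a mean of 4.56% of the input. Mog fell from 206 CPM to between 11.4 and 24.9 CPM, a mean of 8.28%. Cnp fell from 903 CPM to between 63.6 and 96.9 CPM, a mean of 9.12%, and Mag from 773 CPM to between 58.7 and 93.5 CPM, a mean of 9.53%. All 7 members thus passed the rule for depletion (mean at least 2-fold lower and all 18 libraries below the input), as did 21.6% of the 11361 genes. The members were chosen by this contrast, so nothing is read from that count. The input was homogenate taken before precipitation, so these ratios compare RNA before and after precipitation and not numbers of cells. Between the immunoprecipitates, which are bulk libraries, fewer cells of a type and less RNA per cell cannot be told apart.

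**Figure D1:**
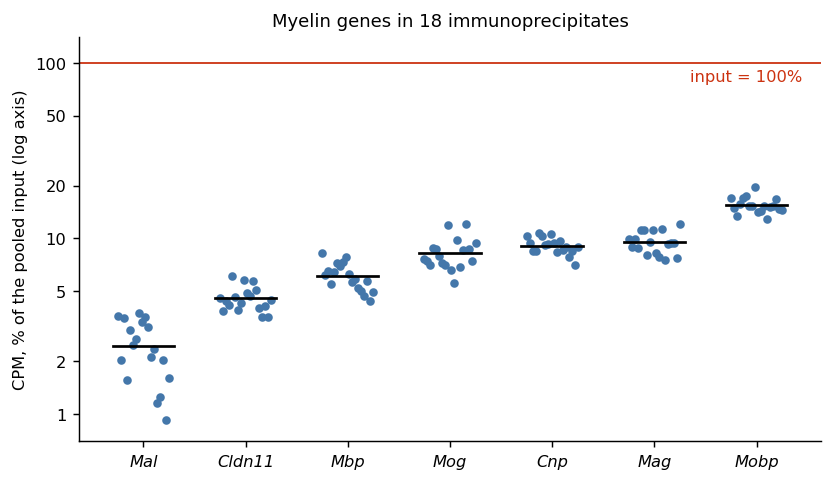
CPM of the 7 myelin genes in each of the 18 immunoprecipitates, as a percentage of the pooled input on a log axis; points are libraries and black bars are means. The Mobp points, from 12.9% to 19.7%, lie above all Mal points, which run from 0.928% to 3.78%.

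The members also differed in how much they varied between libraries. The coefficient of variation over the 18 immunoprecipitates was 37.7% for Mal, 20.8% for Mog, 18.0% for Mbp, 16.1% for Cldn11, 14.5% for Mag, 10.8% for Cnp and 10.4% for Mobp. Counting alone gave 8.40% for Mal, whose counts were as low as 42 in ZT4 replicate 3, and 6.81% for Mog. For the other members counting gave between 1.1% and 5.90%. Each gene thus varied more than its counts required, including the 2 rarest.

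Per length, the order of the members was not the same in precipitate and input. In the input, Mbp led with 5343 CPM per kilobase of its median annotated transcript, followed by Mobp with 841, Cnp with 383, Mag with 349, Cldn11 with 269, Mal with 191 and Mog with 121. In the immunoprecipitates the means were 327 CPM per kilobase for Mbp, 130 for Mobp, 34.9 for Cnp, 33.3 for Mag, 12.3 for Cldn11, 10.0 for Mog and 4.70 for Mal. Mal therefore passed from above Mog to below it. The ranges over libraries of Cnp and Mag overlapped, as did those of Cldn11 and Mog and, narrowly, those of Mog and Mal. Mbp and Mobp stood apart from each other and from the rest.

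The shares of the 7 genes in their summed level also differed between the precipitates and the single input, and the cause was not tested. Of the summed CPM of the 7 genes, Mbp made up 68.9% in the input and 50.5% to 61.4% in the immunoprecipitates. The share of Mal was 3.35% in the input and 0.523% to 1.61% in the immunoprecipitates. Both genes, and Cldn11, had a smaller share in all 18 immunoprecipitates than in the input. Mobp went the other way, from 12.8% to between 23.0% and 31.7%, and the shares of Mag and Cnp were also larger in all 18. Mog, at 1.3% of the sum in the input, was above that share in 10 immunoprecipitates and below it in 8.

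Ratios within a library do not depend on the scaling of library sizes. There were 5.39 Mbp counts for each Mobp count in the input. Among the immunoprecipitates this ratio had a median of 2.13 and ran from 1.62 in ZT8 replicate 2 to 2.64 in ZT0 replicate 1. At ZT0 it was 2.49 ± 0.213 (mean ± SD, n = 3, as for the other time points). It was lower at ZT4 (1.88 ± 0.268) and ZT8 (1.77 ± 0.135), and then 2.05 ± 0.175 for ZT12, 2.40 ± 0.232 for ZT16 and 2.20 ± 0.19 for ZT20. No time point came near the value of the input.

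The sequences in front of the genes were compared between members that moved together and members that did not. RefSeq promoters (GRCm38.p6, 300 bases around the start of the gene) were matched for 6 of the 7 members, all but Mbp. They were searched on both strands for ACAAAG, a core that SOX factors such as the oligodendrocyte regulator SOX10 recognise, for CTGGCAC, a core bound by the myelin regulator MYRF, and for CACGTG, the E-box of the circadian clock. Shown are Mobp, with the most SOX cores, Cnp and 1 of the promoters of Mag, with 1 each, and Mal, with none. Letters run 5′ to 3′ on the strand of the gene, and capitals mark ACAAAG or its reverse complement CTTTGT.
Mobp (chr9:120149492-120149791, plus strand): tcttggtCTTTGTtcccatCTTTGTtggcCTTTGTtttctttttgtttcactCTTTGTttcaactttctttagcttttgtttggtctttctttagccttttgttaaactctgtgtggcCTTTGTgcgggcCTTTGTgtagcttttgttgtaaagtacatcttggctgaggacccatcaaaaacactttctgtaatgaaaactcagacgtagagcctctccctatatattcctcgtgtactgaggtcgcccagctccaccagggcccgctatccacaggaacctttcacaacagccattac
Cnp (chr11:100574689-100574988, plus strand): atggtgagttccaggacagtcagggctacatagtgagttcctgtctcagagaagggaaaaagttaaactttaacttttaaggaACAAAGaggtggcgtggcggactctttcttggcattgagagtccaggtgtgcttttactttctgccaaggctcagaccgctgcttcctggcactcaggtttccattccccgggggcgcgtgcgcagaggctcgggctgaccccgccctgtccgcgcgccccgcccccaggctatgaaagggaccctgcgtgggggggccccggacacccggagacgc
Mag (chr7:30914814-30915113, minus strand): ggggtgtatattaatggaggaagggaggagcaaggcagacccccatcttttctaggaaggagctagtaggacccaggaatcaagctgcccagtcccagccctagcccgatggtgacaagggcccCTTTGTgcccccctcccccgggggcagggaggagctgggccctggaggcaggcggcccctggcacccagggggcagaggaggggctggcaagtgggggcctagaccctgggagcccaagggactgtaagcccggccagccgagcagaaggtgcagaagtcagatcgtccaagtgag
Mal (chr2:127656646-127656945, minus strand): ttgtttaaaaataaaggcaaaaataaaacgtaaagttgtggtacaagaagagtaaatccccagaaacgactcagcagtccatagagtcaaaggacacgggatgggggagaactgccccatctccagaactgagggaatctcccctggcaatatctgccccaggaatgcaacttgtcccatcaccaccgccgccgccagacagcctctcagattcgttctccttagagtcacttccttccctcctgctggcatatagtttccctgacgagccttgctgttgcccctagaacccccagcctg

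The Mobp promoter held 6 SOX cores, and it was the only 1 of 32851 promoters of this length with as many (0.00304%). A promoter with at least 1 core is common, at 18.7% of all, and Cnp and the Mag promoter shown each held 1. Mal, Cldn11 and Mog held none. The MYRF core occurred 1 time each in Cnp and in that Mag promoter, against 5.01% of all promoters with a match, and in none of the other 4 members. None of the 6 members searched held CACGTG, which 7.15% of all promoters do, and Mbp was not searched. Mag had more than 1 promoter, and they were not alike. That at chr7:30914873-30915172 overlaps the one shown and held the same SOX and MYRF cores, but that at chr7:30914272-30914571 held neither. Pairs that moved together went both ways. Mal and Cnp (r = 0.63) differed in these letters, as did Mobp and Mog (r = 0.55). Cnp and the Mag promoter shown (r = 0.60) held the same number of SOX and MYRF cores. Mal and Cldn11 (r = 0.57) were alike in holding none. Whether these letters relate to the movement over libraries was not tested. A match is a description of letters and not a bound site.

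The annotated genes lay on chromosome 9 from 120149742 to 120181488 for Mobp, chromosome 11 from 100574909 to 100591875 for Cnp, chromosome 7 from 30899175 to 30914922 for Mag and chromosome 2 from 127633226 to 127656695 for Mal. Mog lay on chromosome 17 from 37010740 to 37023398, Cldn11 on chromosome 3 from 31149920 to 31164326 and Mbp on chromosome 18 from 82475091 to 82585637. Exons of Mobp overlap those of Gm38642 on the same strand, so reads there could have been split between both. Exons of Cnp overlap those of Dnajc7 on the opposite strand, and the libraries were made with a stranded kit.

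Next, the levels were compared over the day. Mbp and Mal both had lower means at ZT4 and ZT8 than at ZT0 and ZT16, while the time point means of Mobp stayed between 292 and 340 CPM. The tests were quasi-likelihood F-tests of edgeR fitted to all 15572 genes tested in the 18 immunoprecipitates, with Benjamini-Hochberg adjustment over those genes. All 7 members passed the filter on low counts.

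For Mbp, the 3 libraries were at 681, 710 and 908 CPM at ZT0, at 513, 552 and 568 CPM at ZT4, and at 483, 542 and 629 CPM at ZT8. They were at 601, 707 and 788 CPM at ZT12, at 759, 807 and 857 CPM at ZT16, and at 617, 642 and 689 CPM at ZT20. The ZT8 values lay wholly below those of ZT0 and of ZT16. The log2 fold change was -0.46 (SE 0.12, adjusted p = 0.0141) from ZT0 to ZT8 and 0.54 (SE 0.12, adjusted p = 0.00883) from ZT8 to ZT16.

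For Mal, the 3 libraries were at 10.9, 18.8 and 19.3 CPM at ZT0, at 6.12, 6.67 and 12.5 CPM at ZT4, and at 4.93, 8.56 and 10.8 CPM at ZT8. They were at 8.34, 13.1 and 15.9 CPM at ZT12, at 14.2, 17.7 and 20.1 CPM at ZT16, and at 11.3, 16.7 and 18.96 CPM at ZT20. The lowest ZT0 library only just cleared the highest ZT8 library, and ZT16 lay wholly above ZT8. The log2 fold change was -1.004 (SE 0.31, adjusted p = 0.0319) from ZT0 to ZT8 and 1.09 (SE 0.31, adjusted p = 0.0225) from ZT8 to ZT16.

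Thus 2 of the 7 members were lower at ZT8 than at ZT0, where 9.02% of all genes tested were lower, and the same 2 were higher at ZT16 than at ZT8, where 9.11% of all genes were higher. With 7 members these counts do not set the list apart from other genes. Without ZT8 replicate 2 no member was called, and the shares of all genes fell to 1.18% and 0.445% (188 and 71 of 15972). The median log2 fold change of the members was -0.06 from ZT0 to ZT8 and 0.19 from ZT8 to ZT16, against -0.003 and 0.005 over all genes.

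The other 5 members were not called in either comparison. From ZT0 to ZT8 the log2 difference was 0.04 for Mobp, with a 95% interval of -0.20 to 0.27, -0.19 for Cnp (-0.44 to 0.06), -0.06 for Cldn11 (-0.42 to 0.30), 0.04 for Mag (-0.30 to 0.39) and 0.23 for Mog (-0.25 to 0.70). From ZT8 to ZT16 it was 0.11 for Mobp (-0.13 to 0.35), 0.24 for Cnp (-0.01 to 0.49) and 0.19 for Cldn11 (-0.17 to 0.55). It was -0.04 for Mag (-0.39 to 0.31) and 0.03 for Mog (-0.44 to 0.50). The change of Mbp lay outside all of these intervals except that of Cldn11 from ZT8 to ZT16. Whether members differed from each other was not tested.

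**Figure D2:**
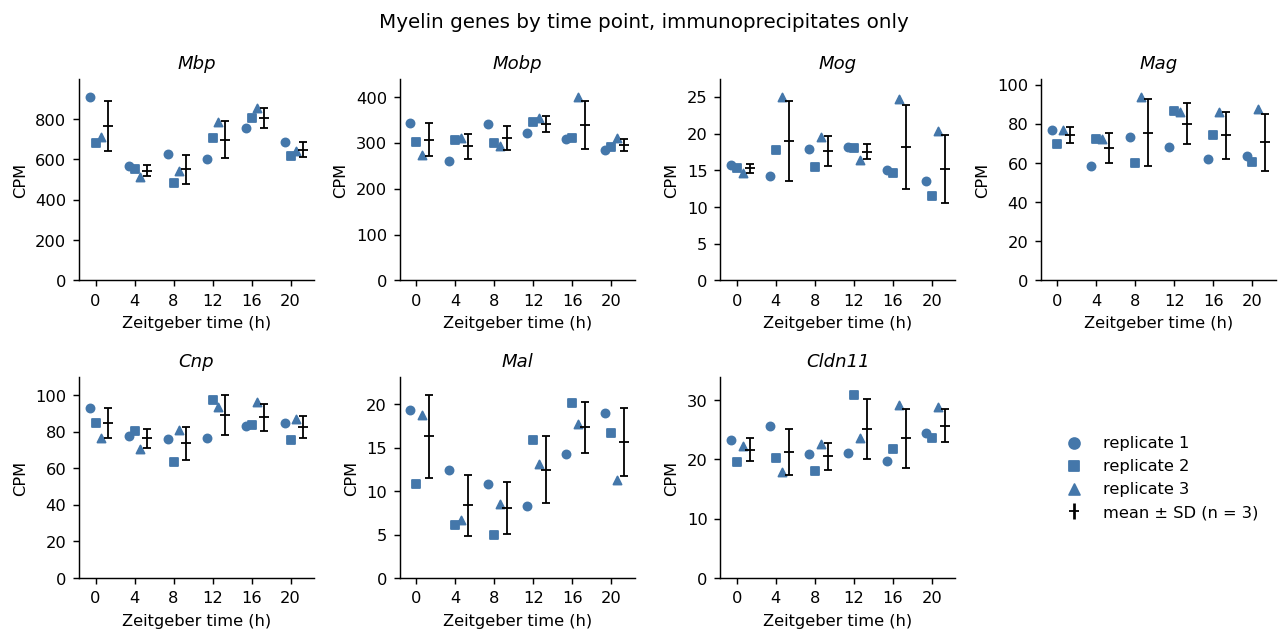
CPM of each myelin gene by Zeitgeber time in h, immunoprecipitates only; symbols are replicates and bars are the mean ± SD of 3. Mbp and Mal dip at ZT4 and ZT8, whereas Mobp means run from 292 to 340 CPM.

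The calls were lost when single libraries were left out, while the fold changes kept much of their size. Without ZT8 replicate 2, which stood apart, the log2 fold change from ZT0 to ZT8 was -0.38 for Mbp and -0.75 for Mal, and from ZT8 to ZT16 it was 0.46 and 0.84. In the same fit the adjusted p from ZT0 to ZT8 was 0.086 for Mbp and 0.17 for Mal, and from ZT8 to ZT16 it was 0.0641 and 0.136. Both calls from ZT0 to ZT8 were also lost without ZT8 replicate 3 (0.0518 and 0.0762) or ZT0 replicate 1 (0.11 and 0.133), and that of Mal without ZT0 replicate 3 (0.112). From ZT8 to ZT16 both were lost without ZT16 replicate 2 (0.0535 and 0.11), and that of Mal without ZT8 replicate 3 (0.0648). Over all 28 alternatives the adjusted p from ZT0 to ZT8 ran from 0.000771 to 0.127 for Mbp and from 6.09e-05 to 0.193 for Mal, and from ZT8 to ZT16 it ran from 4.4e-05 to 0.393 and from 9.46e-06 to 0.415. The log2 fold change of Mbp ran from -0.58 to -0.32 and from 0.46 to 0.70, and that of Mal from -1.28 to -0.75 and from 0.72 to 1.49, so the direction held for both genes in all 28.

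Tests over the whole day called 1 member each. Any difference among the 6 time points was found for Mbp (adjusted p = 0.0263) and not for Mal (adjusted p = 0.0645), with 6.74% of all genes called. A 24-h cosine fitted to the same counts was called for Mal, with an amplitude of 0.58 on the log2 scale and a peak at ZT18.8 (adjusted p = 0.0415), and not for Mbp, with an amplitude of 0.24 and a peak at ZT17.9 (adjusted p = 0.0568). Of all genes, 6.24% were called there. The call of Mbp was lost without any of 6 single libraries (ZT0 replicates 1 and 3, ZT4 replicate 2, ZT8 replicates 2 and 3 and ZT16 replicate 1, adjusted p 0.0508 to 0.0926). That of Mal was lost without any of 10 (adjusted p 0.0516 to 0.122), namely ZT0 replicates 2 and 3, ZT4 replicates 2 and 3, ZT8 replicates 2 and 3, ZT12 replicate 1, ZT16 replicates 1 and 2 and ZT20 replicate 1. Over all 28 alternatives the adjusted p ran from 1.13e-06 to 0.631 for Mbp and from 0.000278 to 0.466 for Mal.

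JTK_Cycle, a rank test for rhythms that the study also used, was written anew here. Whether its adjustment of p matched that of the study was not checked. In this form it called no member, and 0.0385% of all genes (6 of 15572). The p within the gene was 0.00112 for Mbp (adjusted p = 0.085) and 0.0264 for Mal (adjusted p = 0.203), with a best period of 20 h for both. It was at least 0.391 for the other 5 members. Before adjustment over genes, 2 members and 2468 genes had a p under 0.05.

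Between ZT20 and ZT8, the times that the study took for opposing peaks, edgeR called no member and 0% of all genes. Without adjustment, 3474 genes and 1 member had a p under 0.05. That member was Mal, with a log2 difference of 0.94 (95% interval 0.28 to 1.60, adjusted p = 0.0994). Mbp had a difference of 0.23 (95% interval -0.01 to 0.48). With DESeq2, 1 member (Mal) and 1114 genes were called.

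The members did not move over the libraries as 1 block. Pearson's r of log2 CPM over the 18 immunoprecipitates had a median of 0.53 over the 21 pairs, a range of -0.36 to 0.83, and was above 0.5 in 11 pairs and below 0 in 2. The points share their library sizes and the 6 time points. When each value was taken as its deviation from the mean of its time point, the median was 0.51.

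Over all libraries the highest values were those of Mbp with Mal and with Cnp. The r of Mbp was 0.83 with Mal and 0.80 with Cnp, and that of Mal with Cnp was 0.63. ZT8 replicate 2 had the lowest value of all 3 genes, and without it these correlations were 0.79, 0.74 and 0.48. Within time points they were 0.68, 0.75 and 0.43. Cldn11 followed Cnp most closely (r = 0.71, also within time points), then Mal (r = 0.57).

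Mobp, Mag and Mog had r of 0.55 for Mobp and Mog, 0.54 for Mobp and Mag and 0.60 for Mog and Mag, and within time points 0.65, 0.48 and 0.71. Within time points these 3 were thus no looser than Mbp, Mal and Cnp, and Mag had an r of 0.68 with Cnp. ZT16 replicate 3 had the highest Mobp value and, at 24.7 CPM, the next to highest Mog value. Without it, r of Mobp and Mog was 0.36. Among the low values were those of Mal or Mbp with Mog and of Mal with Mag or Mobp, at -0.36 for Mal and Mog (-0.56 to -0.24 with single libraries left out), -0.10 for Mbp and Mog, 0.14 for Mal and Mag and 0.15 for Mal and Mobp. Mog also had a low r with Cldn11 (0.11) and Cnp (0.15). Mbp and Mobp, in contrast, had an r of 0.53. Cnp had an r of 0.58 with Mobp and 0.60 with Mag.

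**Figure D3:**
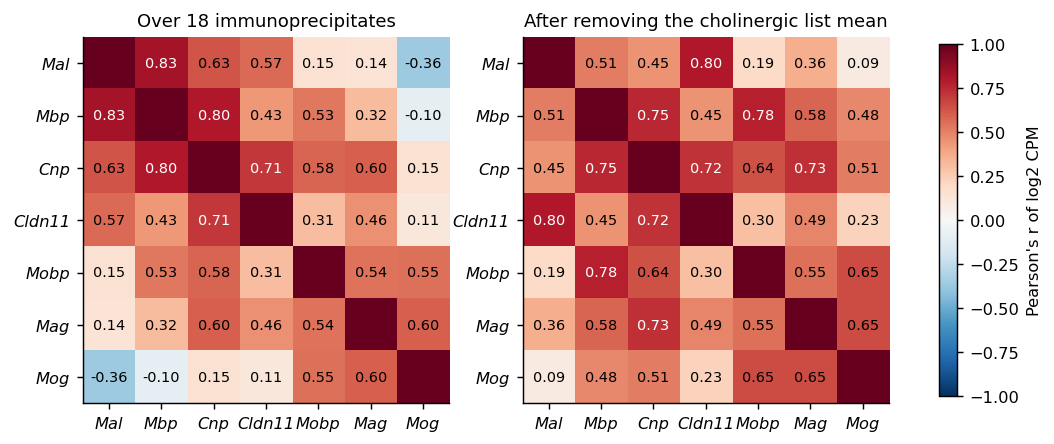
Pearson's r of log2 CPM between the 7 myelin genes over 18 immunoprecipitates (left) and for the residuals after regression on the mean of the cholinergic list (right). On the left the pairs run from -0.36 to 0.83, and on the right from 0.09 to 0.80 with no pair below 0.

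The members also differed in how they moved with the mean level of the markers of the precipitated neurons. Pearson's r with the mean log2 CPM of the cholinergic list was 0.86 for Mal, 0.78 for Mbp, 0.50 for Cnp, 0.20 for Cldn11, 0.06 for Mobp, -0.06 for Mag and -0.47 for Mog. Over all 15572 genes the median r was 0.05, but such values are common: 5.87% of genes had a higher r than Mal and 9.78% a higher r than Mbp, and 78.6% had a higher r than Mog. As deviations from time point means, r was 0.70 for Mal, 0.47 for Mbp, 0.10 for Cnp, -0.08 for Cldn11, -0.19 for Mag, -0.21 for Mobp and -0.54 for Mog. Without the 2 libraries farthest from the median of the list, r over the remaining libraries was 0.78 for Mal, 0.69 for Mbp, 0.26 for Cnp, -0.40 for Mag, -0.67 for Mog and 0.01 for Cldn11 and for Mobp. Without ZT8 replicate 2 alone, r was 0.80 for Mal, 0.72 for Mbp, 0.24 for Cnp, -0.35 for Mag and -0.67 for Mog. The value of Cnp thus rested on that library, and those of Mal and Mbp did not.

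The list mean stood for the main axis of variation of the whole data set, since it had an r of 0.98 with the first principal component, which held 52.5% of the variance of 9252 genes. Its members did not all move alike. Chat, the acetylcholine-making enzyme, and Slc18a3, the vesicular acetylcholine transporter, had r of 0.97 and 0.98 with the list mean, whereas Mnx1, a motor neuron transcription factor, had 0.18 and Prph, an intermediate filament protein of motor neurons, had -0.74. From ZT0 to ZT8, 4 of the 7 cholinergic markers were lower, and from ZT8 to ZT16, 5 of the 7 were higher, against 0 and 0 without ZT8 replicate 2, where the median log2 difference of the list went from -0.64 to -0.46 and from 0.59 to 0.49. Their summed level was 4432 to 4847 CPM in the ZT0 libraries, 4253 to 4722 in those of ZT8 and 4669 to 5084 in those of ZT16. On average most of this sum was Prph (mean 2986 CPM), which ran against the list. Its log2 difference from ZT0 to ZT8 was 0.32, so the sum does not stand for the other markers. The part of this axis in the changes of Mbp and Mal was not tested.

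**Figure D4:**
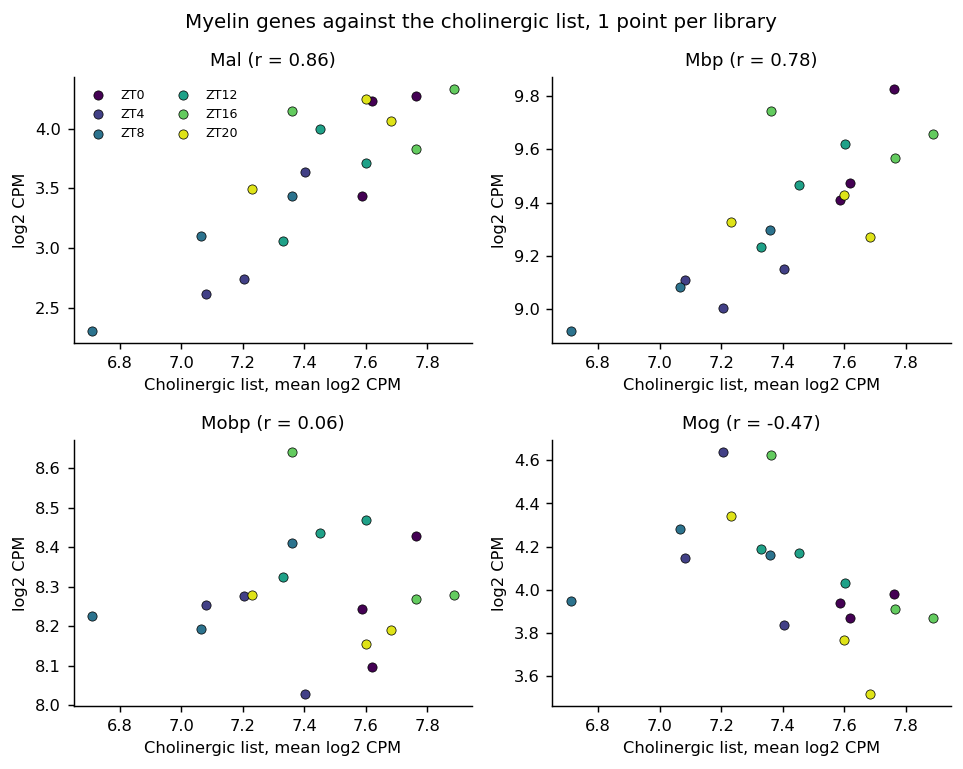
log2 CPM of Mal, Mbp, Mobp and Mog against the mean log2 CPM of the cholinergic list, 1 point per immunoprecipitate, coloured by time point; r is computed with a prior count of 2. Mal (0.86) and Mbp (0.78) rise with the list, Mobp (0.06) does not, and Mog (-0.47) falls.

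When the list mean was regressed out of each gene, r over the 21 pairs spread less widely, from 0.09 to 0.80 against -0.36 to 0.83. This step was chosen after the correlations had been seen. The median r was 0.51 against 0.53, and 12 pairs were above 0.5 against 11, so the members were not more alike by these measures. No pair was below 0, and the lowest, Mal and Mog, went from -0.36 to 0.09. Mbp and Mal fell from 0.83 to 0.51, whereas Mbp and Mobp rose from 0.53 to 0.78, Mbp and Mog from -0.10 to 0.48, and Mal and Cldn11 from 0.57 to 0.80.

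Mitochondrial mRNA was compared with the members in the same way. The 13 mitochondrially encoded mRNAs are translated on the ribosomes of the mitochondrion, which do not contain the tagged protein. Their summed level was 49030 CPM in the input and 1663 to 4718 CPM in the immunoprecipitates, a mean of 6.80% of the input. The lowest library was ZT8 replicate 2 and the highest ZT16 replicate 3. Their r with the cholinergic list was 0.57, and 0.28 without ZT8 replicate 2.

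Pearson's r with this sum on the log2 scale was 0.74 for Mal, 0.73 for Mbp, 0.72 for Cnp, 0.63 for Cldn11 and 0.51 for Mag, against 0.22 for Mobp and 0.03 for Mog. Without ZT8 replicate 2 it was 0.62 for Mal, 0.65 for Mbp, 0.55 for Cnp, 0.57 for Cldn11, 0.40 for Mag, 0.20 for Mobp and -0.05 for Mog. Within time points, Cldn11 (0.76) and Mag (0.74) followed it most closely, and Mobp (0.27) and Mog (0.33) least. Mobp and Mog thus had the lowest r with mitochondrial mRNA in all 3 of these comparisons. What this shared movement comes from was not tested. Total counts had little relation to any member, with r between -0.30 (Mog) and 0.06 (Mag).

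The 19 other oligodendrocyte genes of a marker list showed the same spread. All 19 were depleted, to between 2.76% and 21.7% of the input, and none was at 0 counts in any library. Their summed level was 1011 to 1257 CPM in the ZT0 libraries, 1115 to 1190 in those of ZT8 and 1032 to 1834 in those of ZT16. Trf, which encodes the iron carrier transferrin, resembled Mal and Mbp: it was at 3.22% of the input, had an r of 0.82 with the cholinergic list and 0.76 with Mbp, and was lower at ZT8 than at ZT0 by a log2 fold change of -0.74 (adjusted p = 0.0193, and 0.114 without ZT8 replicate 2). Trf was the only 1 of the 19 called from ZT0 to ZT8, and none was called from ZT8 to ZT16.

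Across the 26 oligodendrocyte genes, the 7 members included, the more strongly a gene was depleted the more it tended to move with the cholinergic list. Spearman's rho between the ratio to the input and r with the list was -0.66 over the 26 genes and -0.70 over the 19 genes that are not members (-0.68 and -0.74 without ZT8 replicate 2). Genes of 1 cell type measured in the same 18 libraries are not independent, so no p is given. The relation was not computed over all genes. Among the 4 astrocyte markers with the highest input levels, the order was the reverse. The r with the list was 0.89 for Aldoc (41.6% of the input), 0.43 for Gfap (6.70%), 0.19 for Slc1a2 (5.92%) and 0.09 for Aqp4 (2.97%). Median transcript length and GC content had little relation to r with the list (rho 0.11 and -0.06 over the 26 genes). Of the 26, 5 had an r above 0.5 and 11 had an r below 0.

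**Figure D5:**
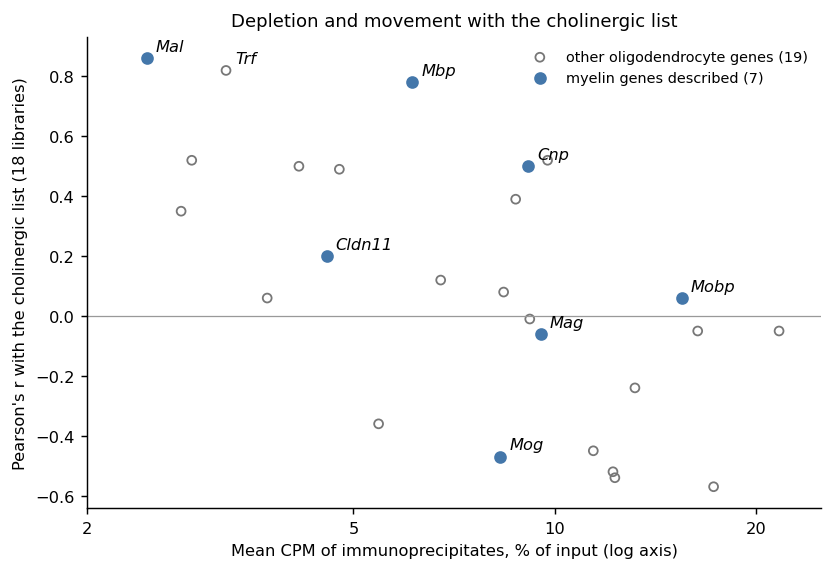
Pearson's r with the cholinergic list over 18 immunoprecipitates against the mean level as a percentage of the input (log axis), for the 7 myelin genes (filled) and 19 other oligodendrocyte genes (open). Mal and Trf, at 2.46% and 3.22% of the input, are at the top left, and Mobp, at 15.5%, is at the right near 0 (rho -0.66).

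Markers of other cells were looked at for the same pattern. Schwann cells also express Mbp, Mag, Mal and Cnp. The summed level of the 6 Schwann cell markers, of which 2 had no count in at least 1 library, was 225 to 297 CPM in the ZT0 libraries, 219 to 247 in those of ZT8 and 234 to 323 in those of ZT16. All 8 astrocyte markers were depleted, and 1 of the 8, Aldoc, was called. Aldoc, a glycolytic enzyme, was the least depleted of them (41.6% of the input), had an r of 0.79 with Mbp and was lower at ZT8 than at ZT0 (log2 fold change -0.44, adjusted p = 0.00895, and 0.0661 without ZT8 replicate 2). Aldoc made up most of the summed level of the 8 markers, which was 838 to 895 CPM in the ZT0 libraries, 571 to 721 in those of ZT8 and 827 to 876 in those of ZT16. Without Aldoc the sum was 176 to 197, 138 to 173 and 173 to 215 CPM. The log2 difference from ZT0 to ZT8 was -0.37 for the filament protein Gfap (adjusted p = 0.0941), -0.20 for the glutamate transporter Slc1a2 (0.362) and -0.15 for the water channel Aqp4 (0.715), and their r with Mbp was 0.62, 0.43 and -0.04.

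Other lists were mixed. Of the 6 microglia markers tested, Cx3cr1, a chemokine receptor, was the only 1 called and was higher at ZT8 than at ZT0 (log2 fold change 1.47, adjusted p = 0.015, and 0.0489 without ZT8 replicate 2), with an r of -0.65 with Mbp. Csf1r and C1qb had log2 differences of -1.47 and -1.02 (adjusted p = 0.105 and 0.114) and r of 0.51 and 0.49 with Mbp, and the median of the list was -0.26. The 6 oligodendrocyte precursor markers were all depleted, and 1 of the 6, Gpr17, at 1.32 CPM on average, rose from ZT8 to ZT16 by a log2 fold change of 1.92 (adjusted p = 0.0212, and 0.102 without ZT8 replicate 2), with an r of 0.70 with Mbp. Bcas1, Enpp6 and Pdgfra had log2 differences of 0.19, 0.26 and -0.44 (adjusted p = 0.376, 0.73 and 0.615). Of the 4 markers of inhibitory neurons, Slc32a1, the vesicular transporter, and Gad2 were lower at ZT8 than at ZT0 (log2 fold changes -0.62 and -0.54, adjusted p = 0.038 and 0.0129). Neither was called without ZT8 replicate 2 (0.191 and 0.0816). Gad1, the most abundant of the 4 in the immunoprecipitates, had a log2 difference of -0.09 (adjusted p = 0.607). Slc6a5, the most abundant of the 4 in the input, had a log2 difference of -0.35 (adjusted p = 0.0765). The r with Mbp was 0.79 for Slc32a1, 0.53 for Slc6a5, 0.40 for Gad2 and -0.06 for Gad1. None of the endothelial, meningeal, erythrocyte or excitatory neuron markers was called in either of these comparisons, although all 4 hemoglobin genes differed among the 6 time points. Their r was -0.32 to -0.11 with Mbp and 0.30 to 0.37 with Mobp. The part of RNA from any of these cells in the levels of the myelin genes was not tested.

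The genes nearest to each member were mostly not myelin genes. For Mal they were Trim44 (r = 0.94), the mitochondrially encoded complex I subunit ND5 and Uggt1, a folding sensor of the endoplasmic reticulum (both r = 0.93). ND5 was itself strongly depleted, with a log2 ratio to the input of -5.43, near the -5.35 of Mal. For Mbp the nearest were Mthfsd, Tmem214 and Coil (r of 0.90, 0.90 and 0.89), with log2 ratios to the input of 1.37, -0.29 and -0.01. Genes that were not depleted thus followed Mbp more closely than its closest partner among the 7, Mal, which was at rank 120 of 15571 genes by likeness to Mbp.

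For Mag, by contrast, 2 of the 3 nearest genes were depleted genes of astrocytes, namely Slc7a10, an amino acid transporter (r = 0.86, log2 ratio to the input -2.99), and Hepacam, an adhesion protein (r = 0.80, log2 ratio -3.64). The third was Cfap410 (r = 0.81). For Mobp the nearest were Gdap1l1 (r = 0.81, log2 ratio 1.49), Gm21596 (r = 0.78) and Gm33320 (r = 0.75, log2 ratio -1.39). Gm21596 was listed at 0 in the input and averaged only 0.192 CPM in the immunoprecipitates, so its r rests on very few counts. For Mog they were Mrps18b, Trmu and Rpl36 (r of 0.82, 0.81 and 0.81), of which the first is a protein of the mitochondrial ribosome and the last of the cytosolic ribosome, and all 3 had a positive log2 ratio to the input (1.14 to 1.47).

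For Cnp the nearest genes were Saal1, Odf2 and Oxa1l (r of 0.86, 0.84 and 0.83), and Mbp followed at rank 6. For Cldn11 they were Bbs9, Nae1 and Prkdc (r of 0.76, 0.75 and 0.74), and Cnp followed at rank 8. Cnp and Cldn11 thus each had another of the 7 close by. The closest of the 7 was at rank 59 for Mobp (Cnp), 92 for Mag (Mog), 339 for Mog (Mag) and 346 for Mal (Mbp).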

How the data were processed

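Ribosome-bound mRNA of 18 immunoprecipitates (6 time points, 3 animals each) and 1 pooled input was sequenced by the authors. Per the labels, reads were aligned with STAR 2.7.5 to mm10. The deposited values are expected counts per gene from RSEM, which the authors did not normalize. RSEM divides reads that fit several genes between them, and these counts were rounded here to whole numbers. Totals were 6302150 to 22406844 per immunoprecipitate.

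Levels and correlations used the 21169 genes with at least 10 counts, TMM scaling over 19 libraries and, on the log2 scale, a prior count of 2. Tests were fitted to the 18 immunoprecipitates with edgeR 4.0.16 under R 4.3.3 (filterByExpr, 15572 genes, TMM, quasi-likelihood F-test, adjusted p under 0.05), and standard errors came from the F statistic. JTK_Cycle used periods of 20, 24 and 28 h (18 templates, Bonferroni within the gene, then Benjamini-Hochberg). The scripts were tested on simulated data. The single input allowed no test. Intervals of counts cover counting error only, because reads carry no molecular identifiers.

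The members, marker lists and pairs of time points were chosen with earlier results of these data known. Genes named are the 7 members, up to 4 genes of each marker list by level in the input, and the 3 genes most correlated with each member. Some genes of the marker lists are not reported here. Mnx1, Isl1 and Chat are named as the rest of the cholinergic list. The mitochondrial mRNAs were added after the values were seen. Alternatives were other scalings, filters, tools, a replicate block and leaving out libraries. Coordinates and promoters are from RefSeq on GRCm38.p6, and transcript lengths from GENCODE. The study names an Ensembl annotation for its counts.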

Additional observations from a re-analysis of the deposited data

How the results depend on the processing

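Settings changed the number of members called mainly between 0, 1 and 2. The number of all genes called moved as well and is given in brackets. For any difference among time points, 1 member was called (1050 genes). There were 2 with a filter of at least 10 counts (1375), 2 with at least 1 count (2767) and 2 with DESeq2 (2502). With libraries left out there were 0 to 2 (0 to 2454). For the 24-h cosine, 1 member (972 genes) became 2 with at least 1 count (2349) and 2 with DESeq2 (2312). With libraries left out it became 0 to 2 (0 to 2668). From ZT0 to ZT8, the 2 members called (2798 genes) became 0 to 2 with libraries left out (0 to 4010). From ZT8 to ZT16, the 2 members called (2633 genes) also became 0 to 2 (0 to 3885). Both comparisons had 0 members without replicate 2 of all time points (0 and 0 genes). The same held without replicate 3 of all time points (0 and 2238 genes). ZT20 against ZT8 went from 0 members (0 genes) to 1 with at least 1 count (1641) and 1 with DESeq2 (1114). With libraries left out it had 0 to 1 (0 to 2320). Leaving out libraries also lowers the number of samples, and the other causes were not tested. Scaling by size factors of DESeq2, by totals or by upper quartiles left each of these counts as it was, and the fold changes of Mbp and Mal from ZT0 to ZT8 and from ZT8 to ZT16, for which alternatives were run, did not reverse. The number of all genes called from ZT0 to ZT8 fell from 2798 to 274, and from ZT8 to ZT16 from 2633 to 87, without ZT8 replicate 2. For marker lists and for correlations with the cholinergic list or mitochondrial mRNA, leaving that library out was chosen after seeing the data. All 7 members stayed depleted in all 25 alternatives, and the median correlation ran from 0.40 to 0.58 with libraries left out.

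The replicate numbers did not pair the libraries: deviations of same-numbered libraries had correlations of -0.509 to 0.58, with 18 of 45 over 0.1. With the replicate block the edgeR counts of members stayed at 1, 1, 2, 2 and 0, and JTK_Cycle went from 0 members to 1.

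Depth limits Mal and Mog most, with as few as 42 and 86 counts in a library. With 3 animals per time point and 1 input, ratios to the input carry no replicate error for the input.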
